A study of Mus musculus with 4 samples.

Results

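The 9 genes described here encode the receptors that sense bacterial lipopolysaccharide and lipoprotein at the cell surface, the adaptor that passes the signal on, and the inhibitors and early products of the transcription factor NF-kappaB. They are Cd14, Ly96, Tlr4, Tlr2, Myd88, Nfkbia, Nfkbiz, Tnfaip3 and Nlrp3, chosen by gene symbol among the 56941 features of the count tables, each symbol standing for 1 feature. Single-cell RNA was measured by droplet capture in mouse bone marrow, with 1 library in each of 4 groups. An Rbm5 knockout (KO) and a wild-type (WT) library came from MLL-AF9 cells, a mouse model of acute myeloid leukaemia named for its fusion oncogene. The leukaemia cells were primary cells collected at 1 endpoint of a first transplantation. Another KO and another WT library came from normal cells labelled ckit+, after the receptor used to enrich blood stem and progenitor cells, and are called c-Kit+ here. The study asked what Rbm5, an RNA-binding protein, does for leukaemia stem cells. The labels give no age, strain, number of animals or knockout allele, so each comparison sets 1 library against 1 other, with no replicate and no test.

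CD14 binds lipopolysaccharide and hands it to the complex of TLR4 and MD-2, the product of Ly96, while TLR2 senses bacterial lipoproteins. Both receptors signal through MYD88 to release NF-kappaB, which then switches on its own inhibitors IκBα (Nfkbia) and A20 (Tnfaip3), the nuclear co-regulator IκBζ (Nfkbiz) and the inflammasome sensor Nlrp3. In marrow this pathway is best known from monocytes and neutrophils, whose response to microbial products it starts.

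After a filter of at least 500 genes, 1000 UMIs (unique molecule tags) and at most 10% mitochondrial UMIs, 11778 KO and 13177 WT MLL-AF9 cells and 13708 KO and 12948 WT c-Kit+ cells were kept, with 101255178, 93004538, 101106754 and 93778544 UMIs. Levels are given in CPM, the UMIs of a gene over all kept cells per 1e6 UMIs of the library, and the 95% intervals cover counting error only, not variation between mice. Rbm5 (chr9:107740371-107770996, minus strand), the targeted gene, gave 116 CPM in the KO and 160.5 CPM in the WT leukaemia library, and 89.6 CPM in the KO and 75.5 CPM in the WT c-Kit+ library. These 3′ tags do not check the deletion, so KO and WT stand for the libraries so labelled. Kit had a UMI in 18.1% of KO and 17.3% of WT c-Kit+ cells, and most cells of both libraries carried granule or late neutrophil markers. Pairs of libraries shared between 40 and 59 cell barcodes, at most 0.448% of a library. Haemoglobin genes took 1.12% of UMIs in KO and 0.216% in WT leukaemia, and mitochondrial genes 0.860% and 1.02%.

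Sequence upstream of the start site was at hand in RefSeq for 5 of the 9 genes, in 7 windows of 250 bases on GRCm38.p6. A 10-base kappaB consensus, the site that NF-kappaB dimers bind, was searched on both strands. It was found in 4 of the 7 windows, against 7.25% of 32851 windows of all genes. By gene it was found in 4 of the 5, against 8.23% of 27025 genes. The 4 windows with a match are printed 5′ to 3′ on the gene's strand, ending at the start site, since all 4 genes were past 2-fold in the leukaemia pair. The capitals mark the matches.
Tlr2 (chr3:83841609-83841858, minus strand): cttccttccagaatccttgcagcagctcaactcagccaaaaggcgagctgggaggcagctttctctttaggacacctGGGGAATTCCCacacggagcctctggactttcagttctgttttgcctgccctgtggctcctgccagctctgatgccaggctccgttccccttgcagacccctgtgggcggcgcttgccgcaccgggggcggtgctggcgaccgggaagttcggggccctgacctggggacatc
Nfkbia (chr12:55492648-55492897, minus strand): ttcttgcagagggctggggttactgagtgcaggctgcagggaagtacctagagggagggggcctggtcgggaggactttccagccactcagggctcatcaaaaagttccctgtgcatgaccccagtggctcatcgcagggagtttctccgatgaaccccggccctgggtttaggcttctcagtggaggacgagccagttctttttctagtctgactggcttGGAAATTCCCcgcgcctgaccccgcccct
Tnfaip3 (chr10:19015411-19015660, minus strand): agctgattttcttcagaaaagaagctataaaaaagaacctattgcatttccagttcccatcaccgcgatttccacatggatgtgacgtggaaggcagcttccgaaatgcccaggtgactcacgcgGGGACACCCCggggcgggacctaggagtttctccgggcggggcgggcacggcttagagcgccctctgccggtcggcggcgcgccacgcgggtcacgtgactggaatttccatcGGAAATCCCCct
Nlrp3 (chr11:59541319-59541568, plus strand): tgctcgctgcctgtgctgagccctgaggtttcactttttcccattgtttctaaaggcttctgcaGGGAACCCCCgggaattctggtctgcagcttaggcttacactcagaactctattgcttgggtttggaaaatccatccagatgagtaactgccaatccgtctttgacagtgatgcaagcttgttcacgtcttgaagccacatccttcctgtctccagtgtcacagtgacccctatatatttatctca
The 2 Tlr2 matches overlap and lie 173 to 163 bases before the start, and the Nfkbia match lies 29 to 20 bases before it. Tnfaip3 has matches 125 to 116 and 12 to 3 bases before the start, and Nlrp3 has 1 match 186 to 177 bases before it. The other windows of Tnfaip3 (chr10:19011964-19012213) and Nlrp3 (chr11:59542436-59542685) and the window of Myd88 held no match. A match describes these letters only, and binding was not measured.

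Cd14, the lipopolysaccharide co-receptor, stood out among the 9 genes in leukaemia. It (ENSMUSG00000051439) lies on the minus strand at chr18:36725067-36726798 of GRCm38, by GENCODE M21, as do the positions that follow. The KO MLL-AF9 library held 41904 Cd14 UMIs (414 CPM, 95% interval 409.9 to 418), against 2543 in the WT MLL-AF9 library (27.3 CPM, 26.3 to 28.4), a ratio of 15.1 (14.5 to 15.8). Of 9901 genes that averaged 5 CPM or above in this pair, 30 had a higher ratio. The KO c-Kit+ library held 17.8 CPM and the WT c-Kit+ library 16.7 CPM, a ratio of 1.06 (0.992 to 1.14). By library sums KO leukaemia was the high library, and WT leukaemia came next at 1.64 times (1.54 to 1.74) the WT c-Kit+ level. Within marker gates, described below, the order of WT leukaemia and WT c-Kit+ cells varied. The c-Kit+ libraries did not differ beyond counting error.

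The difference in Cd14 was in the number of cells in which it was seen as well as in its total. With each cell thinned to 2000 UMIs, Cd14 had a UMI in 50.02% of 11264 KO and 6.46% of 11987 WT MLL-AF9 cells, and in 4.64% of 11927 KO and 4.26% of 11516 WT c-Kit+ cells. Unthinned, the shares were 76.3% and 13.1% in the KO and WT leukaemia libraries, and 10.6% and 9.92% in the KO and WT c-Kit+ libraries. Cells with erythroid markers, which should lack Cd14, had a UMI in 4.57% of KO leukaemia cells after thinning, and whether free RNA or doublets gave these UMIs was not tested (medians before thinning of 9252 UMIs per erythroid cell and 7420.5 per cell of the library).

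Ly96 (chr1:16688051-16709611, plus strand), the lipopolysaccharide-binding partner of TLR4, ran the other way. It gave 572 UMIs (5.65 CPM) in KO and 1045 UMIs (11.2 CPM) in WT MLL-AF9 cells, a ratio of 0.503 (0.453 to 0.557), while the c-Kit+ libraries lay at 5.02 CPM (KO) and 5.34 CPM (WT). WT leukaemia had the highest library sum, and its monocytic gate, 18.4% of its cells against 1.95% of WT c-Kit+ cells, held 48.8% of its Ly96 UMIs. A further ratio gave each gate with 50 or more cells of both libraries the same weight in both, the mean of its UMI shares. With these common gate weights the Ly96 log2 ratio of MLL-AF9 over c-Kit+ cells in WT was 0.15, against 0.95 for the library sums. The monocytic gate held 9.50% of KO leukaemia cells. With common gate weights the Ly96 log2 ratio of KO over WT MLL-AF9 cells was -0.50, against -0.88 for the library sums. Tlr4 (chr4:66827584-66930284, plus strand), the signalling receptor of the complex, was at 23.1 CPM in KO and 17.0 CPM in WT MLL-AF9 cells, a ratio of 1.36 (1.27 to 1.45), and at 10.8 and 9.85 CPM in KO and WT c-Kit+ cells. Myd88 (chr9:119335934-119341411, minus strand), the adaptor, was at 31.3 and 25.1 CPM in KO and WT MLL-AF9 cells, a ratio of 1.25 (1.18 to 1.32), and at 22.7 CPM in both c-Kit+ libraries. The annotation of Myd88 overlaps that of Slc22a14 on the same strand and of Acaa1a on the other, so its reads may be shared. The co-receptor, its partner, the receptor and the adaptor of 1 pathway thus differed by unequal amounts, and in Ly96 in the opposite direction.

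Tlr2 (chr3:83836272-83841767, minus strand), the lipoprotein receptor, gave 7733 UMIs (76.4 CPM) in KO and 2029 UMIs (21.8 CPM) in WT MLL-AF9 cells, a ratio of 3.50 (3.33 to 3.68). The c-Kit+ libraries held 10.998 CPM (KO) and 11.7 CPM (WT), below both leukaemia libraries. Thinned cells with a UMI made up 16.4% of KO and 5.57% of WT leukaemia cells.

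**Figure D1:**
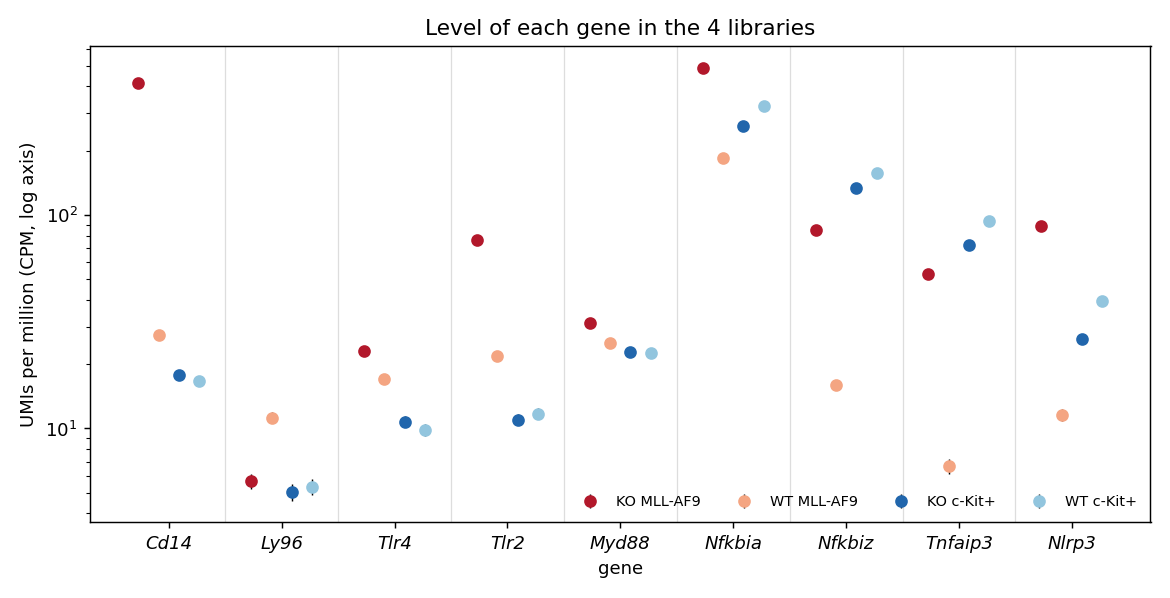
Level in CPM of each of the 9 genes (log axis) in the KO and WT MLL-AF9 libraries and the KO and WT c-Kit+ libraries, with 95% Poisson intervals that are mostly smaller than the points. Heights compare libraries within a gene, not genes. Cd14 stands at 414 CPM in KO leukaemia and at 16.7 to 27.3 CPM in the other libraries, while Nfkbiz and Tnfaip3 are lowest in WT leukaemia.

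The inhibitors and early products of NF-kappaB had a different order from the receptors. Nfkbia (chr12:55489410-55492647, minus strand), which holds NF-kappaB in the cytoplasm, was at 485 CPM in KO and 184 CPM in WT MLL-AF9 cells, a ratio of 2.63 (2.59 to 2.68), and at 260.4 and 325 CPM in KO and WT c-Kit+ cells. Nfkbiz (chr16:55811375-55838899, minus strand), which steers NF-kappaB at late targets, was at 84.6 and 16.0 CPM in KO and WT MLL-AF9 cells, a ratio of 5.29 (5.01 to 5.60). Its c-Kit+ levels of 133 CPM (KO) and 156 CPM (WT) were above both leukaemia libraries. For these genes WT leukaemia was the low library.

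Tnfaip3 (chr10:19000910-19015657, minus strand), a ubiquitin-editing enzyme that ends signalling from TLRs and the TNF receptor, followed the same order. It gave 5368 UMIs (53.0 CPM) in KO and 618 UMIs (6.64 CPM) in WT MLL-AF9 cells, a ratio of 7.98 (7.34 to 8.68), against 72.0 CPM in KO and 94.0 CPM in WT c-Kit+ cells. Nlrp3 (chr11:59541568-59566956, plus strand), the sensor that assembles an inflammasome with caspase-1, gave 9023 UMIs (89.1 CPM) in KO and 1076 UMIs (11.6 CPM) in WT MLL-AF9 cells, a ratio of 7.70 (7.23 to 8.21). Its c-Kit+ levels, 26.2 CPM (KO) and 39.5 CPM (WT), lay between the leukaemia libraries.

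On the log2 ratio of CPM + 1, 6 of the 9 genes were past 2-fold higher in KO than in WT MLL-AF9 cells (Cd14, Tlr2, Nfkbia, Nfkbiz, Tnfaip3 and Nlrp3) and 0 were past 2-fold lower, where 5.5% of all genes at this level were past 2-fold higher and 12.6% past 2-fold lower, 18.1% in either direction. The median over the 9 genes was 1.76, against -0.38 over all 9901 genes. With median-ratio size factors, which bring the median of all genes to -0.03, the median over the 9 genes was 2.11. In KO against WT c-Kit+ cells 0 of 9 genes were past 2-fold, where 0.0628% of 9555 genes were past it higher and 0.0314% lower. The 2 KO comparisons share no library. The 9 genes were chosen with earlier results of these data known, so the shares of all genes give scale and test nothing.

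**Figure D2:**
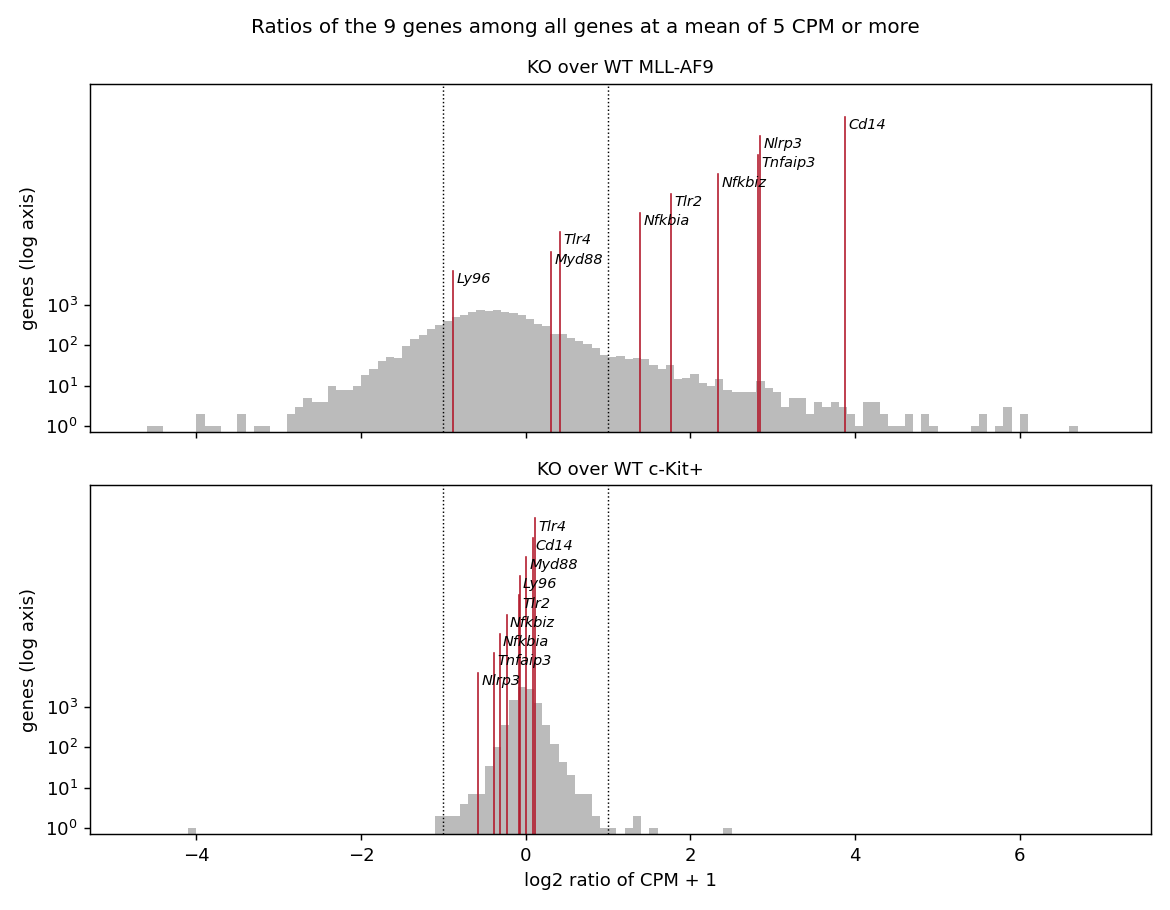
Number of genes (log axis) by log2 ratio of CPM + 1, KO over WT, in MLL-AF9 cells (top) and c-Kit+ cells (bottom), for genes averaging 5 CPM or above, with a red line for each of the 9 genes and dotted lines at 2-fold. Line heights only spread the names. In leukaemia 6 lines lie right of the upper dotted line and Ly96 lies left of 0, while in c-Kit+ cells all 9 lie between the dotted lines.

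The small c-Kit+ differences were not evenly placed. The 4 inhibitors and early products of NF-kappaB, called feedback genes below for short, were all lower in KO c-Kit+ cells. Their ratios were 0.802 (0.789 to 0.815) for Nfkbia, 0.851 (0.831 to 0.871) for Nfkbiz, 0.766 (0.743 to 0.790) for Tnfaip3 and 0.663 (0.630 to 0.697) for Nlrp3. Of 9555 genes that averaged 5 CPM or above, 9535 had a higher ratio than Nlrp3 and 9481 a higher one than Tnfaip3. The intervals of Cd14, Ly96, Tlr4, Tlr2 and Myd88 in this pair all include 1. The spread between 2 WT c-Kit+ libraries is not known, so a ratio whose counting interval excludes 1 may still lie within it.

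Leukaemia against c-Kit+ cells gave one picture in WT and another in KO. In WT, MLL-AF9 over c-Kit+ cells, 3 of the 9 genes were past 2-fold lower, Nfkbiz at a ratio of 0.102 (0.0969 to 0.108), Tnfaip3 at 0.0707 (0.0650 to 0.0767) and Nlrp3 at 0.293 (0.274 to 0.314), where 5.89% of 10036 genes were past 2-fold lower and 16.4% past 2-fold higher. None of the 9 was past 2-fold higher in that pair, although Cd14, Ly96, Tlr4 and Tlr2 had ratios between 1.64 and 2.10. In KO, MLL-AF9 over c-Kit+ cells, 4 genes were past 2-fold higher, Cd14 at 23.3 (22.2 to 24.5), Tlr2 at 6.94 (6.52 to 7.40), Nlrp3 at 3.41 (3.26 to 3.56) and Tlr4 at 2.14 (1.995 to 2.31), where 12.7% of 9668 genes were past 2-fold higher and 12.6% past 2-fold lower. In KO the ratios of Nfkbiz (0.636) and Tnfaip3 (0.736) were below 1 as well, but that of Tnfaip3 was 0.960 without cells bearing basophil or mast markers and 2.51 (2.36 to 2.68) over the 4 myeloid gates together, both settings chosen after the data were seen, so its direction depends on the cells compared. The WT MLL-AF9 library enters both the comparison with WT c-Kit+ cells and that with KO leukaemia, so their values are not independent, and the KO MLL-AF9 library likewise enters both the KO comparison with WT and that with c-Kit+ cells. Tlr4 was no longer past 2-fold in KO with a pseudocount of 5 CPM (log2 0.83) or with thinned cells (0.83). Nor was it with common gate weights (0.85) or equal weight per cell (0.66), so its place near the threshold depends on the setting.

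To see which cells carried the genes, each cell was placed in a marker gate by the share of its UMIs from short marker lists. The myeloid stages were a primary granule gate (Mpo, Elane, Prtn3, Ctsg), a secondary granule gate (Ltf, Camp, Ngp), a late neutrophil gate (Cxcr2, Retnlg, Mmp8, Mmp9) and a monocytic gate (Csf1r, Ly6c2, Ccr2 and others). A cell in 2 or more gates went to the strongest, which concerned 18.4% of KO and 15.4% of WT leukaemia cells and 36.1% of KO and 38.8% of WT c-Kit+ cells. The secondary granule gate held 5076 KO and 2532 WT MLL-AF9 cells and the late gate 1984 and 1850. The monocytic gate held 1119 KO and 2422 WT MLL-AF9 cells, so gate sizes differed and levels are compared within a gate.

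Cd14 was past 2-fold higher in KO leukaemia in 8 of the 8 gates with 50 or more cells of both libraries. The share of all genes past 2-fold higher was 5.13% in the primary granule, 6.08% in the secondary granule, 8.11% in the late neutrophil, 6.12% in the monocytic, 9.83% in the class II, 2.51% in the erythroid and 9.39% in the T or NK gate, and 7.09% in cells of no gate. In the secondary granule gate it was at 429 CPM in KO and 12.97 CPM in WT MLL-AF9 cells, a ratio of 33.1 (29.3 to 37.5). In the monocytic gate it was at 493 CPM in KO and 22.3 CPM in WT cells, and in the primary granule gate at 239.8 and 12.6 CPM. The late neutrophil gate had the highest Cd14 level in both libraries, 749.6 CPM in KO and 121 CPM in WT cells, and the smallest ratio of the 4 stages, 6.19 (5.77 to 6.66).

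The stages ranked differently for Cd14 in c-Kit+ marrow. In c-Kit+ cells Cd14 was highest in the monocytic gate (61.8 CPM in KO, 59.8 in WT) and the late neutrophil gate (57.6 and 45.4), and low in the secondary (25.3 and 21.9) and primary granule gates (10.2 and 11.2). In KO leukaemia the secondary granule gate came near the monocytic one. Cells in no gate had 444 CPM in KO and 34.9 CPM in WT leukaemia. For Cd14, WT leukaemia lay below WT c-Kit+ cells in the secondary granule and monocytic gates, and above them in the primary granule and late neutrophil gates. Over the 4 myeloid gates together, chosen after the data were seen, the WT ratio of MLL-AF9 over c-Kit+ cells was 1.14 (1.06 to 1.22). The Cd14 log2 ratio of this pair was 0.25 with common gate weights, against 0.68 for the library sums.

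Outside the myeloid stages the Cd14 level of KO leukaemia was lower but not 0. Cells with T or NK markers had 81.1 CPM in KO and 15.7 CPM in WT leukaemia, and erythroid cells had 27.7 CPM in KO leukaemia with 0 UMIs in 84 WT cells, where 3 counts would be 3.62 CPM. In c-Kit+ cells the same gates held at most 2.09 CPM. The T or NK gate of KO leukaemia also held 572 CPM of monocytic and 2294 CPM of secondary granule markers, and the erythroid gate 85.8 and 1865 CPM. The part of free RNA and of doublets in these Cd14 values was not tested.

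Of the 4 myeloid gates, the late neutrophil gate had the highest Tlr2 and the monocytic gate the highest Nlrp3 in both leukaemia libraries. Tlr2 was at 218 CPM in KO and 104 CPM in WT leukaemia cells of the late neutrophil gate, and at 162 and 27.6 CPM in the monocytic gate, with ratios of 2.09 (1.92 to 2.28) and 5.87 (5.28 to 6.54). In the monocytic gate Nlrp3 was at 422 CPM in KO and 36.9 CPM in WT leukaemia, a ratio of 11.4 (10.5 to 12.5), and was seen there in 52.1% and 7.59% of thinned cells. That gate held 46.5% of all Nlrp3 UMIs of the KO leukaemia library from 9.50% of its cells, and 54.2% in the WT library from 18.4% of its cells. Tlr2 was past 2-fold higher in 6 of 8 gates and Nlrp3 in 7 of 8.

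Among the inhibitors, Tnfaip3 was past 2-fold higher in KO leukaemia in 8 of 8 gates, and Nfkbia and Nfkbiz in 7 of 8. Tnfaip3 reached a ratio of 16.2 (13.9 to 19.2) in the monocytic gate (173 CPM in KO, 10.6 in WT), against 3.98 (3.25 to 4.89) in the primary granule gate. Nfkbia differed least in the late neutrophil gate, at 484 CPM in KO and 289.6 CPM in WT cells, a ratio of 1.67 (1.59 to 1.76). There the share of thinned cells with an Nfkbia UMI was 42.9% in KO and 43.9% in WT, so no order is read from it. Ly96 was past 2-fold lower in 3 of 8 gates (primary granule, class II and erythroid, where 7.03%, 18.7% and 17.7% of genes averaging 5 CPM or above were). In the primary granule gate (42 UMIs in KO, 174 in WT) and the erythroid gate (2 and 5 UMIs) Ly96 itself averaged below 5 CPM. It is therefore not among the genes of those 2 shares. Myd88 was past 2-fold in no gate in either direction. Tlr4 was past 2-fold higher in the monocytic gate (18.7 CPM in KO, 7.46 in WT) and lower in the class II gate, from 2 UMIs in 73 KO and 17 in 257 WT cells, a ratio of 0.345 whose interval of 0.0387 to 1.45 includes 1.

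**Figure D3:**
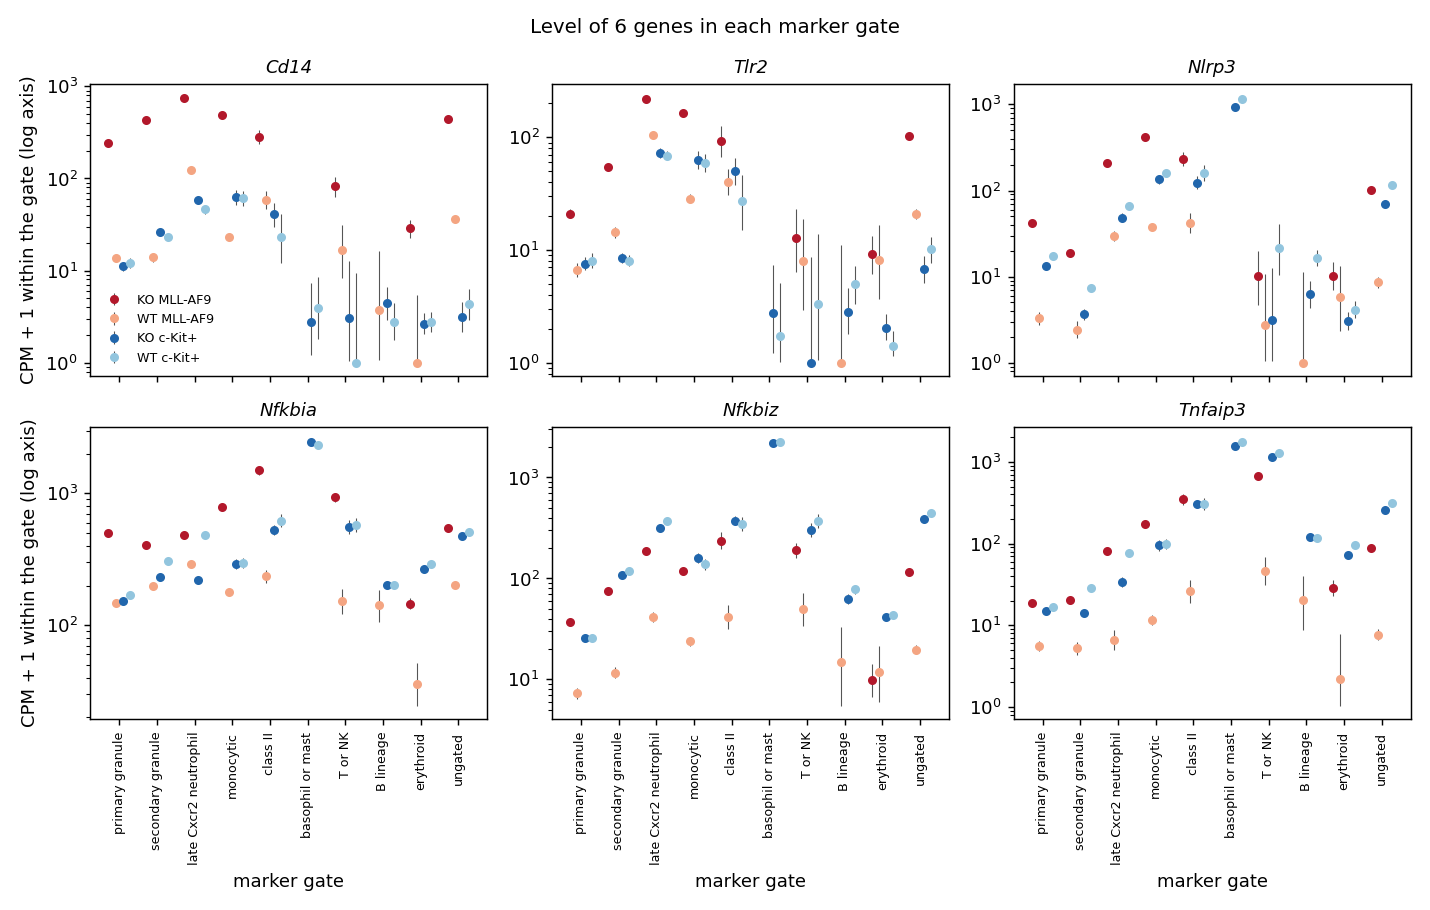
CPM + 1 (log axis) of 6 genes within each marker gate of 50 or more cells, for the KO and WT MLL-AF9 and the KO and WT c-Kit+ libraries, with 95% Poisson intervals. Cd14 lies higher in KO leukaemia (dark red) than in WT leukaemia in each gate shown for both, and the basophil or mast gate has the highest Nfkbia, Nfkbiz and Nlrp3 in c-Kit+ cells, for example 2194 CPM (KO) and 2258 CPM (WT) of Nfkbiz.

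In c-Kit+ marrow a rare gate held a large share of the Nlrp3 and Tnfaip3 UMIs. The basophil or mast gate (Mcpt8, Prss34, Cpa3, Ms4a2, Fcer1a) held 213 KO and 254 WT c-Kit+ cells, 1.55% and 1.96% of the libraries. In it Nlrp3 stood at 927 CPM in KO and 1163 CPM in WT cells, and Tnfaip3 at 1573 and 1775 CPM. These cells held 39.9% of the Nlrp3 UMIs of the KO and 42.6% of those of the WT c-Kit+ library, 24.6% and 27.3% of the Tnfaip3 UMIs, 18.6% and 20.9% of the Nfkbiz UMIs, and 10.5% and 10.3% of the Nfkbia UMIs. Cd14 was nearly absent from them, with 1.76 CPM in KO and 2.95 CPM in WT cells. T or NK cells were the next gate for Tnfaip3, with 1143 CPM in KO and 1293 CPM in WT c-Kit+ cells, and 664 CPM in KO against 45.5 CPM in WT leukaemia.

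The leukaemia libraries held 2 KO and 3 WT cells of the basophil or mast gate. Without that gate, a setting chosen after the data were seen, the WT ratio of MLL-AF9 over c-Kit+ cells was 0.503 (log2 -0.93) for Nlrp3, no longer past 2-fold, while Nfkbiz (0.127) and Tnfaip3 (0.0957) stayed past it. The KO over WT c-Kit+ ratio of Nlrp3 was then 0.692.

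**Figure D4:**
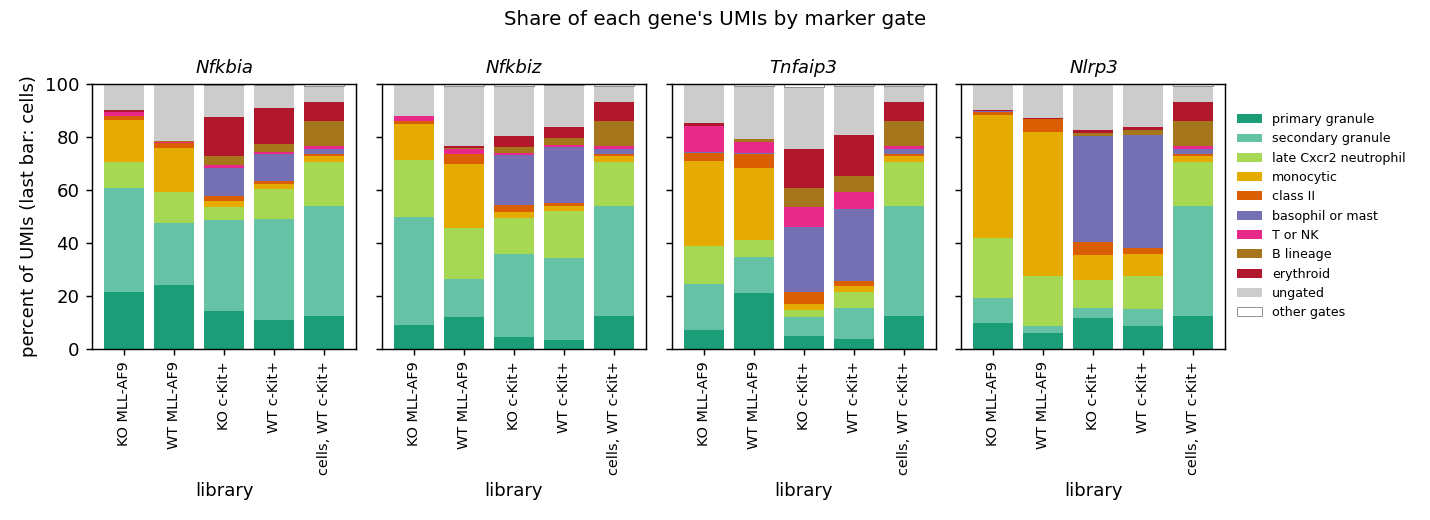
Percent of the UMIs of Nfkbia, Nfkbiz, Tnfaip3 and Nlrp3 that fell in each marker gate, by library, with the gate shares of WT c-Kit+ cells in the last bar. The basophil or mast gate (purple) holds 39.9% of Nlrp3 UMIs in KO and 42.6% in WT c-Kit+ cells from 1.55% and 1.96% of the cells, and the monocytic gate (yellow) 46.5% and 54.2% in KO and WT leukaemia.

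Some feedback genes differed more within neutrophil stages of c-Kit+ marrow than in the library sums, and others did not. In the late neutrophil gate (1915 KO and 2147 WT cells) Nfkbia was at 219.5 CPM in KO and 486 CPM in WT cells, a ratio of 0.452 (0.424 to 0.482), and Tnfaip3 at 33.3 and 75.8 CPM, a ratio of 0.440 (0.371 to 0.519). In that gate 0.355% of 7599 genes were past 2-fold lower. Nfkbia had a UMI in 26.4% of KO and 48.7% of WT thinned cells of the gate. In the secondary granule gate Tnfaip3 (13.1 CPM in KO, 27.5 in WT) was past 2-fold lower, where 0.0627% of 7973 genes averaging 5 CPM or above were. Nlrp3 (2.64 and 6.38 CPM) was just past 2-fold lower there, but it averaged below 5 CPM and is not among these genes. The KO over WT ratio of Nfkbiz was 0.908 (0.870 to 0.947) in the secondary and 0.841 (0.792 to 0.893) in the late gate, and that of Nlrp3 in the late gate was 0.735 (0.631 to 0.855), against library ratios of 0.851 for Nfkbiz and 0.663 for Nlrp3. In the primary granule gate the ratios, 0.895 for Nfkbia, 0.987 for Nfkbiz, 0.877 for Tnfaip3 and 0.751 for Nlrp3, were all nearer to 1 than those of the library sums.

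In monocytic c-Kit+ cells the intervals of all 4 feedback genes included 1. There the KO over WT ratios were 0.981 (0.871 to 1.11) for Nfkbia, 1.16 (0.980 to 1.37) for Nfkbiz, 0.965 (0.782 to 1.19) for Tnfaip3 and 0.850 (0.717 to 1.01) for Nlrp3, from 276 KO and 253 WT cells. The difference between gates was not tested. Over the 4 myeloid gates together, also chosen after the data were seen, Tnfaip3 had a ratio of 0.549 (0.511 to 0.590) and Nfkbia 0.721 (0.705 to 0.736).

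Immediate early genes, known to be induced rapidly by stimulation and by tissue handling, were measured beside these results and differed in the leukaemia pair as well. The list, also chosen with earlier results of these data known, was Fos, Fosb, Jun, Junb, Egr1, Egr2, Ier2, Atf3, Nr4a1, Dusp1, Klf2, Hspa1a and Hspa1b. Their summed level was 14520 CPM in KO and 472 CPM in WT leukaemia, and 2202 CPM in KO and 2546 CPM in WT c-Kit+ cells. Klf2 alone gave 5960 CPM of the KO and 86.8 CPM of the WT leukaemia sum. Of the 13 genes 12 averaged 5 CPM or above, and all 12 were past 2-fold higher in KO than in WT leukaemia, where 5.5% of all genes were. In the secondary granule gate the sum was 13290 CPM in KO and 379 CPM in WT leukaemia, while in the late c-Kit+ gate, where Nfkbia and Tnfaip3 were past 2-fold lower in KO, it was 2791 CPM in KO and 2943 CPM in WT. In the c-Kit+ basophil or mast gate it was 19825 CPM in KO and 21589.9 CPM in WT cells. The part of this difference in the member genes was not tested.

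Cells were also set side by side in bins of immediate early UMIs, within which levels were not matched between the libraries. The direction differed between genes and between levels. Among thinned cells with 4 to 10 immediate early UMIs (778 KO and 643 WT leukaemia cells, 6.91% and 5.36%), Cd14 was at 249 CPM (225 to 275) in KO and 114 CPM (96.6 to 134) in WT, and Nfkbia at 567 and 283 CPM. In the same cells Tlr2 was lower in KO, at 24.4 CPM (17.3 to 33.5) against 88.6 CPM (73.1 to 106) in WT, as was Ly96, at 3.86 CPM (1.42 to 8.39) against 27.2 CPM (18.96 to 37.9), and the intervals overlapped for Nlrp3 (23.8 and 30.3 CPM) and Nfkbiz (46.9 and 52.9 CPM). With 1 to 3 such UMIs (210 KO and 6229 WT cells) Cd14 was at 85.7 CPM (60.03 to 119) in KO and 44.4 CPM (40.8 to 48.2) in WT, and Tlr2 at 7.14 CPM (1.47 to 20.9) and 35.6 CPM (32.3 to 39.03), while Nfkbia (255 and 225 CPM) had overlapping intervals and Nfkbiz was at 9.52 CPM (2.59 to 24.4) and 24.7 CPM (22.04 to 27.6). These cells may differ in marker gates as well, which was not adjusted for. In KO leukaemia 90.9% of thinned cells had over 10 such UMIs, with Cd14 at 519 CPM, and 42 cells had none, with Cd14 at 23.8 CPM (2.88 to 86.0). In WT leukaemia 15 cells had over 10, with Cd14 at 600.0 CPM (356 to 948). In cells with over 10 Nfkbia was at 521 CPM (511 to 531) in KO and 1733 CPM (1295 to 2273) in WT, and Nfkbiz at 108 CPM (104 to 113) in KO and 400.0 CPM (207 to 699) in WT, the opposite direction to the library sums. This bin has no upper bound, so its KO and WT cells may lie at unlike immediate early levels. In WT leukaemia 5100 had none, with Cd14 at 25.2 CPM. In c-Kit+ cells with over 10, Cd14 was at 29.9 CPM (23.6 to 37.3) in 1305 KO and 25.2 CPM (19.8 to 31.7) in 1447 WT cells. In c-Kit+ cells with none it was at 18.9 CPM (14.9 to 23.7) in KO and 15.6 CPM (11.5 to 20.7) in WT. Nfkbia was at 1085 CPM in KO and 1102 CPM in WT c-Kit+ cells with over 10, and at 163 and 202 CPM in those with none.

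More of the 9 genes were seen per cell in KO leukaemia, as follows from their levels. The mean number of the 9 with a UMI in a thinned cell was 1.65 in KO and 0.649 in WT MLL-AF9 cells, and 0.852 in KO and 0.991 in WT c-Kit+ cells. At least 3 were seen in 21.1% of KO and 2.37% of WT leukaemia cells, and in 6.29% of KO and 9.31% of WT c-Kit+ cells. Pairs of genes were seen together to unequal degrees. Nfkbia was seen in 48.9% of KO leukaemia cells with Cd14 and 48.4% of those without it, against 45.2% and 31.1% in WT leukaemia. In KO leukaemia Tlr2 was seen in 31.4% of cells with Nlrp3 and 14.2% of cells without it. In c-Kit+ cells with Nlrp3, Tnfaip3 was seen in 50.8% of KO and 48.6% of WT cells, against 7.50% and 9.34% of the cells without Nlrp3. Pairs were not counted within gates, and the basophil or mast gate of c-Kit+ cells was high in both genes.

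**Figure D5:**
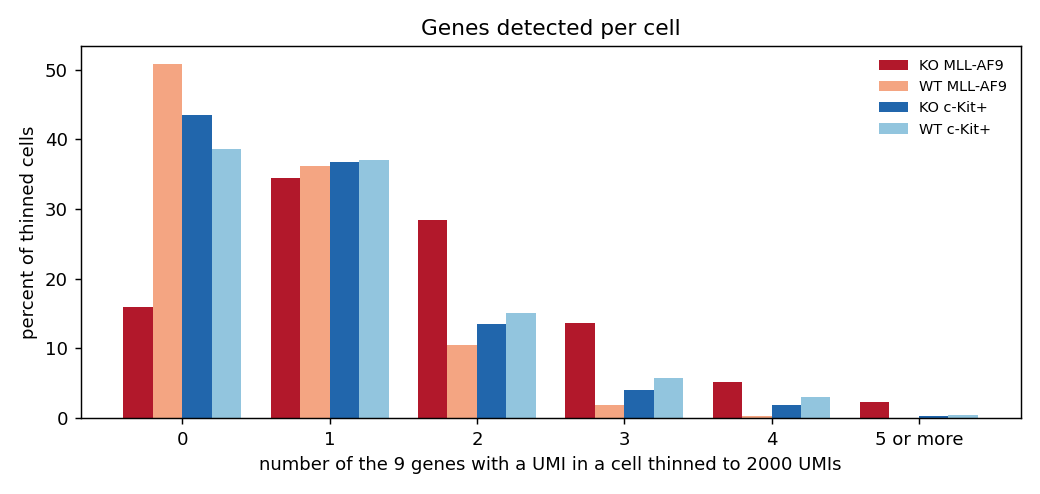
Percent of cells thinned to 2000 UMIs (vertical axis) by the number of the 9 genes with a UMI, for the KO and WT MLL-AF9 and the KO and WT c-Kit+ libraries. Cells with none make up 16.0% of KO and 50.8% of WT leukaemia cells, and cells with 2 make up 28.4% and 10.6%.

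Over 39 gate-by-library sums of at least 50 cells, which share libraries and depth, the genes with the most similar profiles of log2(CPM + 1) were found among 6656 genes. For Cd14 they were Plin2 (Pearson r 0.90), Tlr2 (0.88) and Cebpb (0.87), and for Tlr2 they were Lrrc25 (0.91), Cd80 (0.90) and Cd14. For Nfkbia they were Ccl3 (0.90), Sqstm1 (0.82) and Junb (0.82), for Nfkbiz Ccl4 (0.90), Zfp36 (0.86) and Tnfaip3 (0.85), for Tnfaip3 Sqstm1 (0.91), Rgs1 (0.90) and Arf4 (0.87), and for Nlrp3 Ccl6 (0.88), Neat1 (0.88) and Ccl3 (0.87). Ly96 was nearest to Slfn5, Ifi27l2a and Apobec1 (0.82 each), Tlr4 to Mctp1, Lpgat1 and Gmip (0.83 to 0.85), and Myd88 to Actb, Sirpa and Borcs6 (0.85 to 0.86). With the feedback genes Cd14 had an r of 0.30 for Nfkbia, -0.001 for Nfkbiz, -0.15 for Tnfaip3 and 0.41 for Nlrp3. These values pool leukaemia and c-Kit+ libraries, so they do not describe the KO and WT difference in leukaemia.

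Other genes of the pathway were read from 4 lists, in KO against WT MLL-AF9 cells. The lists were chosen with earlier results of these data known, so the shares of all genes give scale and test nothing. Of 28 listed feedback and early target genes, 25 averaged 5 CPM or above, and 13 of these were past 2-fold higher and 0 lower, where 5.5% and 12.6% of all genes were, with a median log2 ratio of 1.22 against -0.38 over all genes. The cytokine Il1b was at 386 CPM in KO and 18.8 CPM in WT cells, the RNA-decay factor Zfp36 at 669 and 42.7 CPM, and the early response gene Ier3 at 143 and 9.78 CPM. The lowest ratios of the list were those of Otulin (35.8 and 46.9 CPM), Icam1 (6.16 and 8.16 CPM) and the deubiquitinase Cyld (92.5 and 118 CPM).

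The subunits of NF-kappaB and of its activating kinase were split. Of 8 genes 2 were past 2-fold higher and 0 lower, where 5.5% and 12.6% of all genes were, with a median of -0.03: Relb was at 31.9 CPM in KO and 8.25 CPM in WT leukaemia, Nfkb2 at 19.3 and 5.16 CPM, and Rel, short of 2-fold on this scale, at 103 and 54.8 CPM. Relb stands in both this list and the feedback list. The lowest were Ikbkg (19.4 and 28.5 CPM), Nfkb1 (164 and 199 CPM) and Chuk (32.0 and 37.1 CPM). With CPM 4 of the 8 were higher in KO, and with median-ratio size factors 7.

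Receptors and adaptors showed no common direction. Of 25, 16 were at level, 3 past 2-fold higher and 2 lower (1 with median-ratio size factors), with a median of -0.31, where 5.5% of all genes were past 2-fold higher and 12.6% lower. The interleukin-1 decoy receptor Il1r2 was at 369 CPM in KO and 36.2 CPM in WT leukaemia, the co-receptor Il1rap at 113 and 34.9 CPM and the inhibitory kinase Irak3 at 138 and 64.1 CPM. The lowest were Ly86 (27.6 and 94.5 CPM) and Cd180 (12.6 and 30.4 CPM), which encode the MD-1 and RP105 pair related to MD-2 and TLR4, and Irak4 (30.3 and 54.1 CPM). With CPM 7 of the 16 were higher in KO, and with median-ratio size factors 10.

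Of 10 inflammasome partners 8 were at level, 1 past 2-fold higher and 2 lower, where 5.5% of all genes were past 2-fold higher and 12.6% lower, with a median of -0.58. With median-ratio size factors 0 were past 2-fold lower. Casp4, the inflammatory caspase that senses lipopolysaccharide in the cytosol, was at 146 CPM in KO and 22.8 CPM in WT leukaemia, while Gsdmd (62.0 and 61.8 CPM) and Casp1 (35.0 and 36.7 CPM) lay near equal levels. The lowest were Txnip (91.6 and 215 CPM), Nek7 (43.8 and 94.9 CPM), a kinase that NLRP3 needs, and Nlrc4 (8.18 and 16.5 CPM). With CPM 2 of the 8 were higher in KO, and with median-ratio size factors 3. In KO against WT c-Kit+ cells 0 genes of the 4 lists were past 2-fold. Of 9555 genes in that pair 0.0942% were, so a count of 0 says little about the lists.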

How the data were processed

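Droplet single-cell RNA counts of 4 mouse bone marrow libraries were used. The authors' files hold whole-number UMI counts, not normalized, for each gene in each cell barcode, made with Cell Ranger 7.1.0 on mm10 per the submitters' processing notes; the annotation and the counting of introns are not given in the sources used here. Of 56941 feature IDs, 51948 were found in GENCODE M21, used for positions only.

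Cells with at least 500 genes, 1000 UMIs and at most 10% mitochondrial UMIs were kept. Doublets were kept; leaving out cells called by Scrublet (scanpy 1.11.5, expected rate 0.08) was an alternative. Member counts were summed over cells and divided by the library's UMIs (CPM). With 1 library per group there was no test: ratios carry exact conditional binomial 95% intervals, CPM exact Poisson and shares Clopper-Pearson intervals, all for counting error only. A gene was past 2-fold when log2 of (CPM + 1) differed by 1 or more, among genes averaging 5 CPM or above. Within gates the member genes were called at any level, while the shares of all genes keep the filter of 5 CPM. The pseudocount of 1 CPM understates the change of low genes. Shares of cells were taken after thinning each cell to 2000 UMIs, which left out 514 KO and 1190 WT MLL-AF9 cells and 1781 KO and 1432 WT c-Kit+ cells.

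A cell entered a gate when at least 2 markers were seen and the list took at least a set percent of its UMIs: 0.5 for the primary granule and class II gates, 2 for the secondary granule gate, 0.1 for the T or NK and B lineage gates, and 0.2 for the others. Gates describe marker content and are not clusters.

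The text names the 9 genes, Rbm5, the 3 highest and 3 lowest ratios of each pathway list and the 3 most alike genes of each member (mean of at least 20 CPM over gate sums). The members and lists were chosen with earlier results of these data known. Alternatives covered the cell filter, doublets, scaling, pseudocount, level filter, thinning, cell weighting and gate thresholds. The ratio and interval code was tested on simulated data. Python 3.11.15, numpy 2.4.6, scipy 1.17.1, pandas 2.3.3 and matplotlib 3.10.9 were used.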

Additional observations from a re-analysis of the deposited data

Results flagged for a closer look

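For 4 genes the KO and WT libraries differed in opposite directions in leukaemia and in c-Kit+ marrow, and the difference between the 2 effects was not tested, since each group has 1 library. Nfkbia had a KO over WT ratio of 2.63 in MLL-AF9 cells and 0.802 in c-Kit+ cells, a difference of 1.71 on the log2 scale. For Nfkbiz the ratios were 5.29 in MLL-AF9 and 0.851 in c-Kit+ cells, a log2 difference of 2.56. For Tnfaip3 they were 7.98 and 0.766 in MLL-AF9 and c-Kit+ cells, a log2 difference of 3.2. For Nlrp3 they were 7.70 and 0.663 in MLL-AF9 and c-Kit+ cells, a log2 difference of 3.42.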

How the results depend on the processing

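No paired analysis was possible because each group has 1 library. In KO against WT MLL-AF9 cells the sign held for all 9 genes in 99 of 99 recomputed values, and 6 genes stayed past 2-fold higher. Ly96 ranged from log2 -1.15 with thinned cells, past 2-fold lower, to -0.50 with common gate weights. The sign held in 97 of 99 values for KO against WT c-Kit+ cells. It held in 97 of 99 for MLL-AF9 over c-Kit+ in WT (Myd88 -0.15 with median-ratio factors and -0.03 with common gate weights). In KO it held in 96 of 99, where Ly96 turned. Over the 4 myeloid gates together, which those counts leave out, Tnfaip3 turned to log2 1.28 in MLL-AF9 over c-Kit+ cells in KO. The median log2 ratio of the 9 genes in leukaemia, 1.76, was 2.11 with median-ratio size factors, 1.60 with a pseudocount of 5 CPM and 1.57 with equal weight per cell. The share of all genes past 2-fold in that pair, 18.1%, was 7.60% with no level filter, 14.3% for genes averaging 25 CPM or above, and 12.9% with median-ratio factors, where 8.87% were higher and 4.06% lower, against 5.5% higher and 12.6% lower with CPM. With the stricter cell filter 5 genes were past 2-fold in MLL-AF9 over c-Kit+ cells in WT (2 higher, 3 lower), against 3; the cause was not tested. With 1 library per group, variation between mice was not measured, and low counts in small gates widen their intervals.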
